A study of Homo sapiens with 4 samples.

Results

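EPB41 family genes, the ERM genes EZR, RDX and MSN, and the merlin gene NF2 were followed in MDA-MB-231, an established human line of triple-negative, mesenchymal-like breast cancer. These are FERM-domain linkers, proteins that tie membrane proteins to the cortical cytoskeleton. The 10 genes were picked by symbol (EPB41, EPB41L1, EPB41L2, EPB41L3, EPB41L4A, EPB41L5, EZR, RDX, MSN and NF2) from the 28930 symbols of a gene count table, and all 10 passed the filter on low counts that left 13022 genes. The family was taken up because EPB41L3 was already known to be among the largest differences between the same groups, so values of the 10 genes in this contrast are given as a description, without a test.

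RNA sequencing compared cells given an siRNA against hTrmt13 (knockdown, 2 libraries) with cells described as control (control, 2 libraries). The sample descriptions do not say what the control cells were given. All libraries came from the same line. The labels do not state whether replicates were separate cultures, so p-values reflect only the spread between these libraries, and that spread may be technical. hTrmt13, encoded by TRMT13, is a tRNA ribose methyltransferase, and the study asked which genes respond to its loss. Library totals lay between 9777267 and 13098985 counts. Levels are given as CPM, read counts scaled to a common library size after TMM normalization. TRMT13 itself had 3.52 and 4.79 CPM in the knockdown libraries, against 14.9 and 18.9 CPM in the control libraries (log2 fold change −2.02, SE 0.34, edgeR adjusted p = 0.0399).

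A FERM domain is a clover-shaped module that binds phosphoinositides and the cytoplasmic tails of membrane proteins. Proteins of the 4.1 class add a segment that binds spectrin and actin, and were first described in the red cell membrane skeleton. Ezrin, radixin and moesin carry an actin-binding tail that folds back on the FERM domain until lipid binding and phosphorylation open the molecule, and they shape microvilli, ruffles and the cell cortex. Merlin is built like an ERM protein but acts as a growth suppressor, upstream of the LATS kinases and YAP. In breast cancer lines of mesenchymal type, moesin is known as the prevailing ERM protein.

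Cell type markers were read first. All 6 markers of mesenchymal-like breast cancer lines had a mean above 1 CPM, and the luminal receptor genes ESR1 and PGR had no count in any library. Of 8 luminal epithelial markers, 5 had a mean above 1 CPM, led by the keratin gene KRT8, and their summed level was 891 and 807 CPM in knockdown, against 1042 and 936 CPM in control. Of 7 erythroid markers, 5 had no count, among them both alpha globin genes and HBB, and of 4 leukocyte markers none had a mean above 1 CPM. Summed over 3 endothelial markers the level was 2.76 and 1.27 CPM in knockdown, against 13.05 and 7.81 CPM in control, and its part in the results was not tested. In a principal component analysis, knockdown and control libraries parted along component 1 (64.2% of the variance) and the replicate numbers along component 2 (29.8%).

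EPB41L3 and RDX lay at opposite ends of the family, and the sequences upstream of their starts are shown because they differ in how many starts the gene has and in CpG content. RefSeq (GRCh38.p14) lists 4 starts for EPB41L3 on chromosome 18 and a single start for RDX on chromosome 11. Each line gives 250 bases before a start, 5′ to 3′ on the gene's strand, with CpG dinucleotides in capitals.
EPB41L3, start farthest upstream, chr18:5628992-5629241, minus strand: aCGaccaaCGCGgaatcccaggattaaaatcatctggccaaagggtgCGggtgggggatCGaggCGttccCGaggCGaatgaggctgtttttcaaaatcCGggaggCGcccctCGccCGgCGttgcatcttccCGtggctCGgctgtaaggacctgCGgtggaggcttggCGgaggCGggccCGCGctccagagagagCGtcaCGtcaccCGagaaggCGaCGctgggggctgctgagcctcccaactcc
EPB41L3, start farthest downstream, chr18:5521380-5521629, minus strand: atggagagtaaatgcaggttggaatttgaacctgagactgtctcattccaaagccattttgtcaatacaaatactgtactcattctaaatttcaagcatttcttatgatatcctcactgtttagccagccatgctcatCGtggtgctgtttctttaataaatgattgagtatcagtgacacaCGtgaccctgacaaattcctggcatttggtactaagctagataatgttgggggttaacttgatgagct
RDX, its listed start, chr11:110296615-110296864, minus strand: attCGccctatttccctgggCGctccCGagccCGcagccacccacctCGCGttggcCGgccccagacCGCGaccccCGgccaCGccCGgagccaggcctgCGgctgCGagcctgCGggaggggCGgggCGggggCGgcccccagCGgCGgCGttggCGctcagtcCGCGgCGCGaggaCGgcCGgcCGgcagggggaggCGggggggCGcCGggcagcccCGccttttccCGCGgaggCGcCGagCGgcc

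The RDX window held 38 CpG dinucleotides at 82% G and C. The 2 EPB41L3 windows printed held 25 and 2 CpG, at 65.2% and 38.8% G and C, against a median of 11 CpG and 58% over 35116 RefSeq windows of this length. RefSeq listed several starts for 6 of the 10 genes and 21 windows in all, which ranged from 2 to 38 CpG. The GC box GGGCGG, searched on both strands, was found in 14 of these 21 windows and in at least 1 window of each of the 10 genes, and in 42.6% of all windows. The letters GGAATG, the core that TEAD factors recognise, were in 2 of the 21 windows and in 11.9% of all windows. AP-1 letters TGANTCA were in 1 window (6.57% of all) and E-box letters CACGTG in 2 (6.34% of all). The deposited counts are per gene and do not say which start was used.

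EPB41L3 encodes protein 4.1B, also known as DAL-1, a 4.1 protein reported as lost in several carcinomas. It had 450 and 288 counts in the knockdown libraries, against 46 and 31 counts in the control libraries. Scaled for depth and composition, this was 42.8 and 21.6 CPM in knockdown, against 4.80 and 2.40 CPM in control. Both knockdown libraries lay above both control libraries, and the lower knockdown library was still several times the higher control library. The fitted log2 fold change was 3.17 (SE 0.49), or 9.02-fold. The ratio of depth-scaled counts was 9.04, with a 95% exact binomial interval of 7.14 to 11.6 that covers counting error only. A higher level can come from more cells with the transcript or more transcript per cell, and bulk libraries cannot tell these apart.

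Replicates of EPB41L3 differed by a similar factor in both groups. Replicate 1 held 1.98 times the CPM of replicate 2 in knockdown and 2.00 times in control. The ratio of knockdown to control was therefore alike within each replicate number, 8.91 for replicate 1 and 8.996 for replicate 2. The control libraries held 46 and 31 counts, too few to say how closely these ratios match. The gap between replicates was larger than that of 90.0% of tested genes in knockdown and 91.8% in control. The labels do not say that a replicate number marks a shared culture or day.

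**Figure D1:**
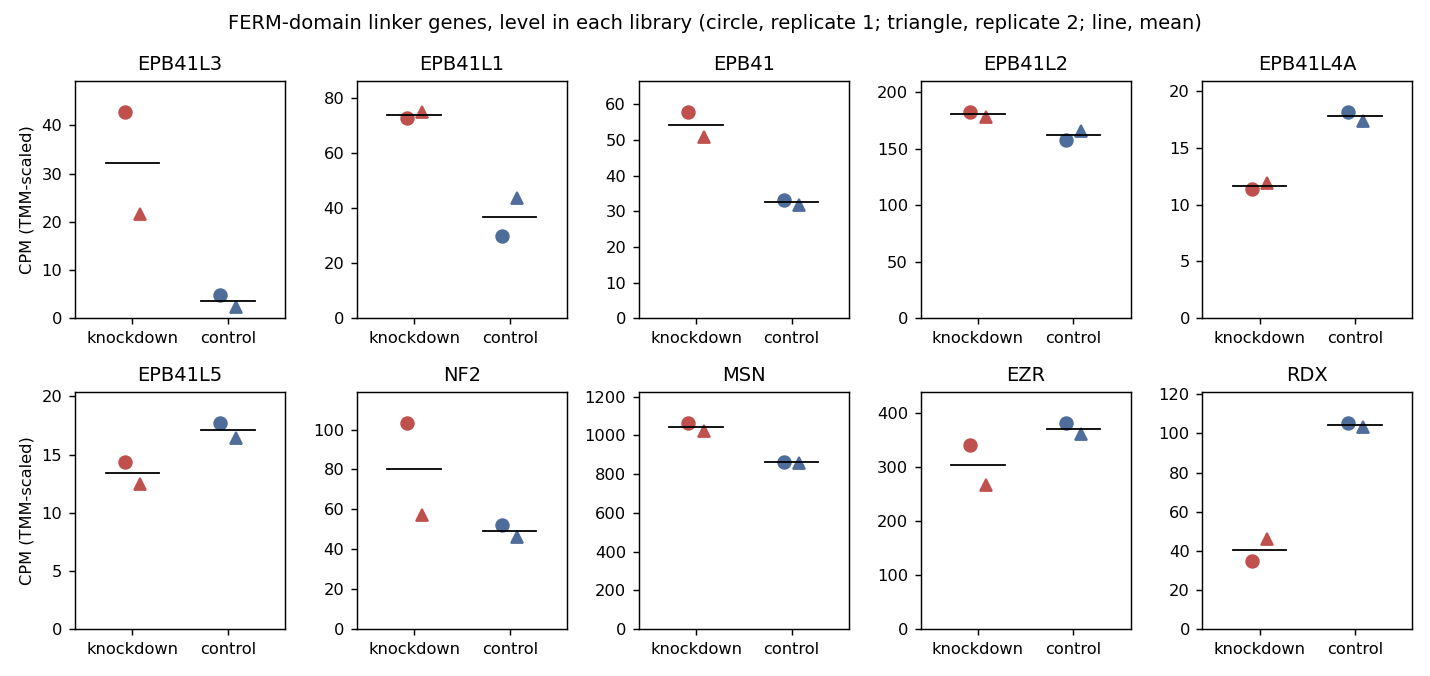
Level of each of the 10 genes in CPM (vertical axes, each from 0) in the knockdown libraries (left, red) and control libraries (right, blue). Circles are replicate 1, triangles replicate 2 and lines the mean of 2 libraries. EPB41L3 stands at 42.8 and 21.6 CPM in knockdown and below 5 CPM in control, and RDX at 34.6 and 46.1 CPM in knockdown and above 100 CPM in control.

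Radixin, encoded by RDX, is the ERM protein best known from stereocilia and bile canaliculi, chiefly through work in mice. RDX had 364 and 615 counts in the knockdown libraries, against 1011 and 1334 counts in the control libraries. This was 34.6 and 46.1 CPM in knockdown, against 106 and 103 CPM in control. The control libraries were nearly equal and the knockdown libraries lay below them by a wide margin. The fitted log2 fold change was −1.37 (SE 0.24), or 2.58-fold lower in knockdown. Within replicate numbers the level was 3.05-fold lower in replicate 1 and 2.24-fold lower in replicate 2.

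Moesin, encoded by MSN, had 1066 and 1024 CPM in the knockdown libraries, against 863 and 858 CPM in the control libraries. The groups did not overlap, but the difference was small, at a log2 fold change of 0.28 (SE 0.19). Ezrin, encoded by EZR and best known from epithelial microvilli, had 340 and 265 CPM in knockdown, against 382 and 360 CPM in control. Its log2 fold change was −0.29 (SE 0.22), and the gap between the knockdown libraries was wider than the difference of the group means. The 3 ERM genes therefore had fitted values on both sides of 0, with MSN above it.

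Per kilobase of exon (union of GENCODE 29 exons, whose build is not the one named in the processing notes), the summed level of the 3 ERM genes was 284 and 256 CPM per kilobase in knockdown, against 271 and 264 CPM per kilobase in control. These sums overlapped between the groups, while their make-up did not. MSN took 62.8% and 66.9% of the sum in knockdown, against 53.3% and 54.6% in control. EZR took 35.8% and 31.0% in knockdown, against 42.1% and 40.9% in control. RDX took 1.43% and 2.11% in knockdown, against 4.57% and 4.59% in control. A ratio of counts within a library needs no scaling between libraries, and MSN over RDX was 30.8 and 22.2 in knockdown, against 8.18 and 8.32 in control.

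**Figure D2:**
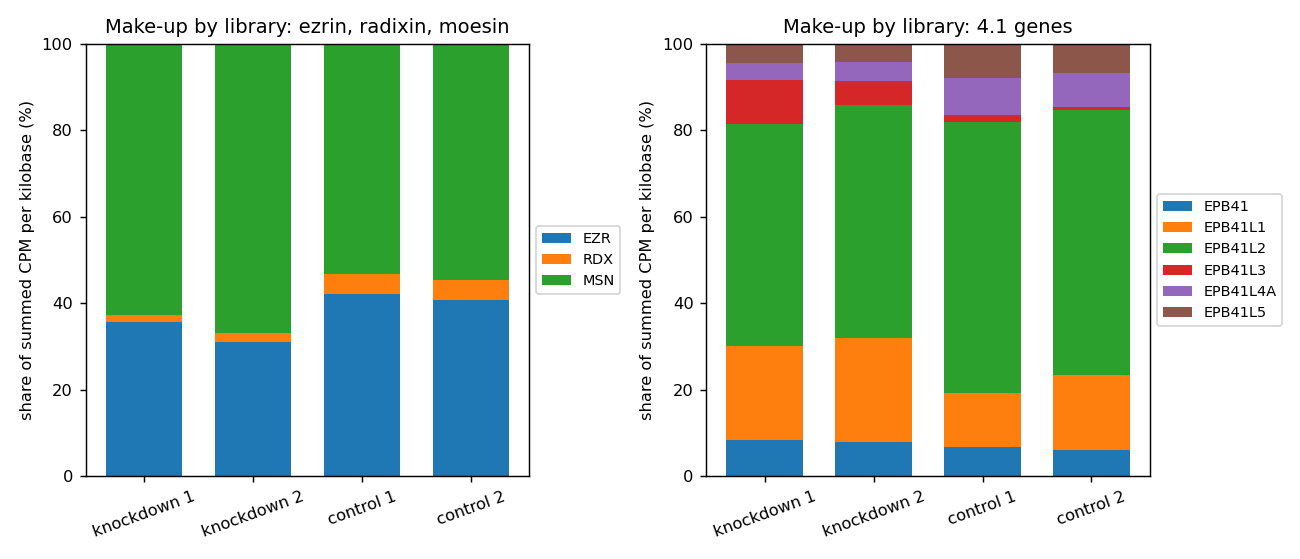
Share of the summed CPM per kilobase of exon (vertical axes, percent) taken by each ERM gene (left) and each 4.1 gene followed here (right, without EPB41L4B) in the 2 knockdown and 2 control libraries. RDX takes 1.43% and 2.11% of the ERM sum in knockdown and 4.57% and 4.59% in control, and EPB41L3 takes 10.2% and 5.51% of the 4.1 sum in knockdown and 1.61% and 0.75% in control.

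Among the other 4.1 genes, EPB41L1 and EPB41 had the largest positive values. EPB41L1 encodes protein 4.1N, the neuronal 4.1 protein. It had 72.6 and 74.9 CPM in knockdown, against 29.7 and 43.7 CPM in control, a log2 fold change of 1.00 (SE 0.27). The knockdown libraries were close together and the control libraries were not. EPB41 encodes protein 4.1R, the red cell protein that gave the family its name. It had 57.8 and 50.8 CPM in knockdown, against 33.2 and 31.8 CPM in control, a log2 fold change of 0.74 (SE 0.23). Within replicate numbers it was 1.74-fold and 1.597-fold higher.

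EPB41L2, which encodes the broadly expressed protein 4.1G, had 183 and 178 CPM in knockdown, against 158 and 166 CPM in control. Its log2 fold change was 0.16 (SE 0.20), the smallest of the family in size. EPB41L4A and EPB41L5 encode shorter, more distant relatives that lack the spectrin-actin segment, and EPB41L5 is known in epithelial polarity and in mesenchymal transition. EPB41L4A had 11.4 and 11.9 CPM in knockdown, against 18.2 and 17.4 CPM in control (log2 fold change −0.61, SE 0.27). EPB41L5 had 14.4 and 12.4 CPM in knockdown, against 17.7 and 16.4 CPM in control (log2 fold change −0.35, SE 0.27). For both genes the knockdown libraries were the lower ones.

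Summed over the 6 EPB41 family genes followed here, the level was 34.5 and 32.1 CPM per kilobase in knockdown, against 24.5 and 26.2 CPM per kilobase in control. The sum and the shares leave out EPB41L4B, which had 16.0 and 21.6 CPM in knockdown, against 51.6 and 45.9 CPM in control. They therefore do not describe all EPB41 family genes. EPB41L2 took the largest share in every library, 51.3% and 53.9% in knockdown and 62.6% and 61.4% in control. EPB41L1 took 21.8% and 24.1% in knockdown, against 12.6% and 17.3% in control. EPB41L3 took 10.2% and 5.51% in knockdown, against 1.61% and 0.75% in control. EPB41L4A and EPB41L5 each took a smaller share in knockdown than in control. Counts of EPB41L2 were 4.27 and 8.27 times those of EPB41L3 in knockdown, against 32.9 and 69.2 times in control.

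NF2 had 103 and 57.1 CPM in the knockdown libraries, against 52.2 and 46.1 CPM in the control libraries. The groups did not overlap, but knockdown replicate 1 stood apart from the other 3 libraries. The fitted log2 fold change was 0.71 (SE 0.32), and without knockdown replicate 1 it was 0.22. Within replicate numbers, NF2 was 1.98-fold higher in replicate 1 and 1.24-fold higher in replicate 2.

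Per kilobase of exon, the order of levels in knockdown was MSN, EZR, EPB41L2, NF2, EPB41L1, RDX, EPB41, EPB41L3, EPB41L5 and EPB41L4A, at 175, 90.6, 17.5, 11.2, 7.62, 4.73, 2.72, 2.64, 1.44 and 1.36 mean CPM per kilobase. There the libraries of EPB41 and EPB41L3 overlapped, as did those of EPB41L5 and EPB41L4A. In control the order was MSN, EZR, EPB41L2, RDX, NF2, EPB41L1, EPB41L4A, EPB41L5, EPB41 and EPB41L3, at 144, 111, 15.7, 12.2, 6.85, 3.80, 2.07, 1.84, 1.63 and 0.29 mean CPM per kilobase, and no neighbours overlapped. EPB41L3 ranked 8 in knockdown and 10 in control, and RDX ranked 6 in knockdown and 4 in control. With the length of the longest coding transcript in place of all exons, EPB41 stood above RDX in knockdown and above EPB41L4A and EPB41L5 in control, and EPB41L4A stood above EPB41L5 in knockdown.

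**Figure D3:**
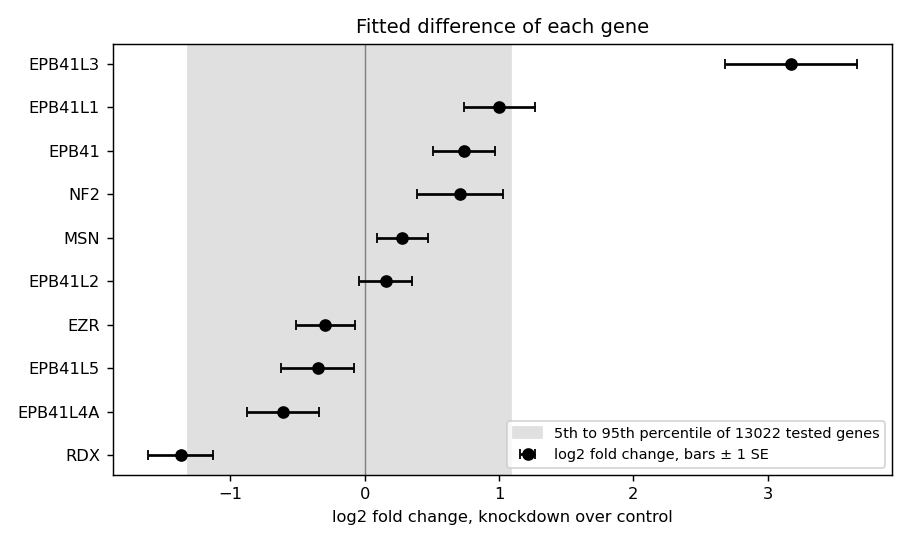
Fitted log2 fold change of knockdown over control for each gene (horizontal axis), with bars of 1 SE. The grey band runs from −1.32 to 1.09, the 5th and 95th percentiles of the 13022 tested genes, and EPB41L3 and RDX are the 2 genes outside it.

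Over the 10 genes, 6 fitted values were positive and 4 negative, with a median of 0.22 beside 0.01 for all tested genes. The edgeR quasi-likelihood test called 2.99% of all tested genes at an adjusted p under 0.05 (1.03% higher and 1.96% lower in knockdown), and of the 10 genes it called EPB41L3 higher and RDX lower. The libraries of the groups did not overlap for 10 of the 10 genes, where 54.3% of all tested genes showed this. Because the family was chosen from this contrast, nothing is read from either count.

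**Figure D4:**
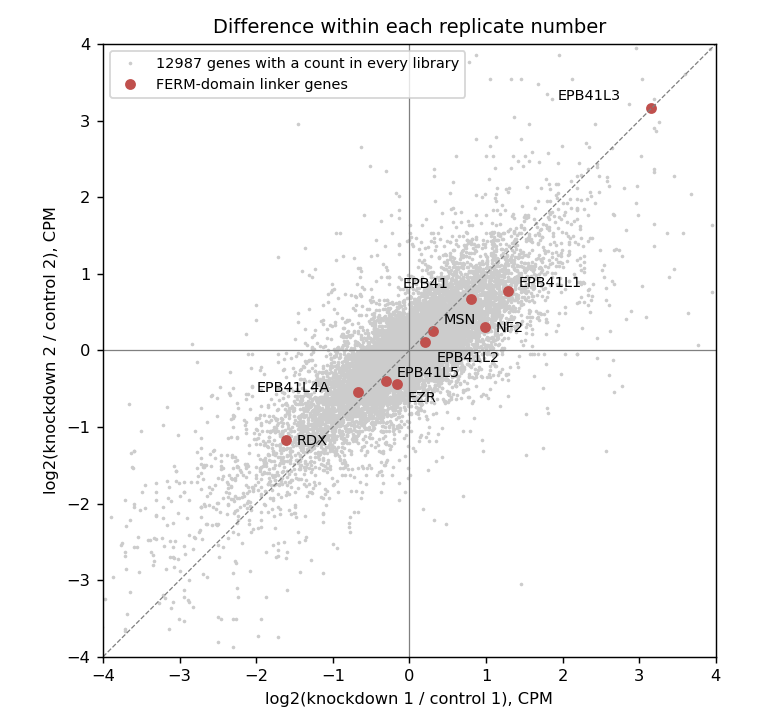
Log2 ratio of knockdown to control CPM in replicate 1 (horizontal axis) and replicate 2 (vertical axis), for the 10 genes (red) and for 12987 genes with a count in every library (grey, cut at 4 on both axes). EPB41L3 lies on the dashed line of equal ratios, at 3.16 and 3.17, while NF2 lies below it at 0.99 and 0.31.

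With symbols that are clone names or hold long numbers passed over, the genes nearest to EPB41L3 in pattern were CPA4, FAM227A and FILIP1L. Nearness was the Euclidean distance of centred log2 CPM over the 4 libraries (0.56, 0.83 and 0.83). Distances were taken to 10851 other genes of at least 5 mean CPM, a number that includes the symbols passed over. CPA4, a carboxypeptidase, had 34.1 and 22.5 CPM in knockdown, against 2.82 and 1.86 CPM in control. With 4 libraries, such a distance describes a high knockdown level and a higher replicate 1, and nothing more.

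Reads of some members may not be separate from those of neighbours, since the strand setting of the counting is not given in the sources used here. Overlap was taken from whole-gene coordinates, and whether exons overlap was not checked. RDX overlaps ZC3H12C on the opposite strand, which had 467 and 689 counts in knockdown, against 370 and 614 counts in control. EPB41L4A overlaps its antisense gene EPB41L4A-AS1, with 97 and 101 counts in knockdown, against 151 and 155 counts in control. EPB41 overlaps TMEM200B, with 57 and 122 counts in knockdown, against 89 and 176 counts in control. MSN has an annotated processed pseudogene, MSNP1, not analysed here.

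Partners and relatives of the family were taken from 6 lists by role, 142 genes of which 123 were tested and 3 stood in more than 1 list. The lists were drawn up with earlier results of these data known. Their counts and p-values are therefore given as a description, not as an independent test. At an edgeR adjusted p under 0.05, 5 of them passed, all 5 lower in knockdown, where 1.03% of all tested genes passed as higher and 1.96% as lower. At an unadjusted p under 0.05, 11.5% of all tested genes were higher and 12.5% lower (24% in all), and DESeq2 called 5.34% of its genes at an adjusted p under 0.05.

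In the skeleton of spectrins, ankyrins, adducins and tropomodulins to which 4.1 proteins attach, 2 of 18 genes tested passed, both lower, with a median log2 fold change of 0.03 beside 0.01 for all genes. At an unadjusted p under 0.05, 3 were higher and 5 lower, beside 11.5% higher and 12.5% lower over all genes. SPTB, the red cell beta spectrin that binds protein 4.1R, had 3.23 and 3.22 CPM in knockdown, against 17.4 and 10.1 CPM in control. It fell 4.24-fold (log2 fold change −2.08, SE 0.39, edgeR adjusted p = 0.0464), and the adjusted p was 0.0516 without control replicate 1 and 0.0537 over genes of at least 5 CPM. TMOD1, which caps the pointed ends of actin filaments in the red cell skeleton, had 0 and 2 counts in knockdown, against 17 and 45 counts in control. Its depth-scaled count was 32.9-fold lower (95% exact binomial counting interval 8.72 to 277; edgeR adjusted p = 0.0435). The fitted log2 fold change of −4.83 was −4.05 without knockdown replicate 1, −7.88 without knockdown replicate 2 and −4.25 without control replicate 2. The value of −7.88 rests on 0 counts in knockdown and is no measure of the fold. TMOD1 was not tested over genes of at least 5 CPM. The summed level of the 7 erythroid markers, which SPTB makes up almost alone, was 3.23 and 3.30 CPM in knockdown, against 17.5 and 10.1 CPM in control, and its part in the result was not tested.

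Among 14 tested adhesion, polarity and enzyme partners of 4.1 proteins, 0 rose and 0 fell by edgeR (median 0.05), with 1 call by DESeq2. At an unadjusted p under 0.05, 0 were higher and 2 lower, beside 11.5% higher and 12.5% lower over all genes. Nothing is read from counts this small. The lowest p-values were those of SDC2, a heparan sulphate proteoglycan whose tail binds 4.1 and ERM proteins, and CADM4, a cell adhesion molecule. SDC2 had 30.1 and 31.7 CPM in knockdown, against 63.7 and 65.6 CPM in control (edgeR adjusted p = 0.0593). CADM4 had 5.04 and 5.84 CPM in knockdown, against 13.2 and 10.4 CPM in control (edgeR adjusted p = 0.109).

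Of 17 tested ERM membrane ligands and scaffolds, 2 passed, both lower in knockdown. Of their fitted values 14 were negative and 3 positive, with a median log2 fold change of −0.53 beside 0.01 for all genes. At an unadjusted p under 0.05, 1 was higher and 5 lower, beside 11.5% higher and 12.5% lower over all genes. ICAM1, an adhesion receptor whose tail binds ERM proteins, had 1.62 and 1.72 CPM in knockdown, against 21.0 and 8.43 CPM in control. It fell 8.71-fold (log2 fold change −3.12, SE 0.52, edgeR adjusted p = 0.0399), and the log2 fold change was −2.32 without control replicate 1. SPN, the leukocyte sialoglycoprotein CD43, had no count in either knockdown library, against 13 and 15 counts in control. With 3 counts over the group as the floor, it was at least 9.90-fold lower in knockdown (edgeR adjusted p = 0.0445, and 0.083 without knockdown replicate 2). It was not tested without control replicate 2 or over genes of at least 5 CPM, where it fell below the filter on low values. The summed level of the 4 leukocyte markers, SPN among them, was 0.67 and 0.90 CPM in knockdown, against 1.57 and 1.70 CPM in control, with CD3E at 0 in every library. Without SPN the order turns, since PTPRC, the pan-leukocyte gene CD45, had 0.67 and 0.90 CPM in knockdown, against 0.10 and 0.54 CPM in control. CD44, the hyaluronan receptor and best-known ERM ligand, was picked after its values were seen. It had 156 and 160 CPM in knockdown, against 273 and 273 CPM in control (log2 fold change −0.79, SE 0.20, edgeR adjusted p = 0.079).

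Of 18 tested kinases, phosphatases and other regulators of ERM proteins, 0 rose and 0 fell by edgeR (median −0.01), with 1 call by DESeq2. At an unadjusted p under 0.05, 0 were higher and 2 lower, beside 11.5% higher and 12.5% lower over all genes. Again nothing is read from these counts. SLK, a kinase that phosphorylates ERM proteins, had 52.9 and 92.0 CPM in knockdown, against 138 and 159 CPM in control (edgeR adjusted p = 0.11). PPP1R12A, the targeting subunit of myosin phosphatase, which dephosphorylates ERM proteins and merlin, had 58.0 and 84.4 CPM in knockdown, against 126 and 133 CPM in control (edgeR adjusted p = 0.11).

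Of 23 tested partners of merlin upstream of YAP, 0 rose and 0 fell by edgeR (median −0.05), with 2 higher and 2 lower at an unadjusted p under 0.05 (24% over all genes) and 1 call by DESeq2. LATS1, the kinase that merlin recruits to the membrane, had 13.3 and 22.0 CPM in knockdown, against 45.3 and 60.0 CPM in control (log2 fold change −1.57, SE 0.33, edgeR adjusted p = 0.0576). It lay just outside the threshold. By edgeR adjusted p it stayed outside with library size alone (0.0638), with size factors from DESeq2 (0.055) and over genes of at least 5 CPM (0.0602). It lay inside with upper-quartile scaling (0.0493) and with no filter on low counts (4.89e-05), and by DESeq2 itself (adjusted p = 0.0012). Without 1 library the log2 fold change of LATS1 ran from −1.98 to −1.25. WWC1, the scaffold KIBRA that acts with merlin, had 41.5 and 36.7 CPM in knockdown, against 19.1 and 24.6 CPM in control (edgeR adjusted p = 0.12).

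Of 36 other FERM-domain genes tested, 1 passed, with 15 positive and 21 negative values and a median of −0.21. At an unadjusted p under 0.05, 0 were higher and 10 lower, beside 11.5% higher and 12.5% lower over all genes. The gene that passed was EPB41L4B, a close relative of EPB41L4A also known as EHM2. It had 16.0 and 21.6 CPM in knockdown, against 51.6 and 45.9 CPM in control, and fell 2.59-fold (log2 fold change −1.37, SE 0.27, edgeR adjusted p = 0.0491). The call sat at the threshold and ended without control replicate 1 (0.0612), with library size alone (0.0562) and over genes of at least 5 CPM (0.0533).

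**Figure D5:**
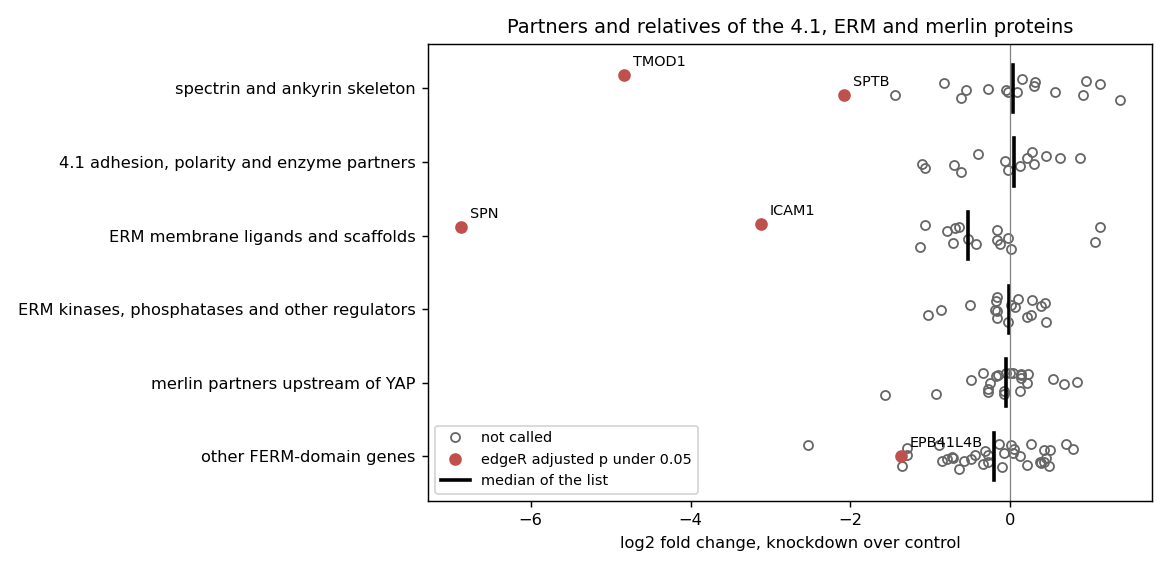
Log2 fold change of knockdown over control (horizontal axis) for the tested genes of 6 lists of partners and relatives, scattered vertically for visibility. Filled points passed the edgeR threshold, open points did not, and bars mark each list's median. All 5 filled points lie left of 0, and the position of SPN rests on 0 counts in knockdown and is no measure of its fold.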

How the data were processed

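RNA-seq libraries of MDA-MB-231 cells were made from Trizol-extracted total RNA with an Illumina TruSeq kit, per the labels' protocols. The authors deposited raw counts of reads for each gene symbol, with a column for every library. Tools listed in the submitters' processing notes are HTSeq (0.6.1), STAR (2.5.2b), limma and cutadapt, and hg19 and GRCh37 are the builds listed, with no role stated for any. Annotation, strand setting and filters are not stated there. Groups and replicate numbers came from the sample descriptions.

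The test was edgeR's (version 4.0.16, under R 4.3.3; TMM scaling, filterByExpr with a minimum count of 10 and a minimum total of 15, quasi-likelihood test of knockdown against control, no covariate, Benjamini-Hochberg adjustment over 13022 genes, threshold 0.05). CPM values are TMM-scaled. Each SE was computed from the same test, as the size of the log2 fold change over the square root of its F statistic. The common biological coefficient of variation was 0.246. The test was also run on simulated counts, drawn as independent libraries with no shared difference between replicate numbers. Nothing is read from that run here. The members, the lists and the rule for named genes were chosen with earlier results of these data known. Named list genes were up to 4 called genes with the smallest adjusted p, or the 2 smallest p-values where none was called. Some cell type markers are not reported here. Lengths came from GENCODE 29 (GRCh38), matched by symbol, and promoter windows from RefSeq (GRCh38.p14), matched for all 10 genes. Alternatives were DESeq2 1.42.0, other scalings and filters, each library left out, and a replicate block.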

Additional observations from a re-analysis of the deposited data

How the results depend on the processing

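Calls of the 10 family members are given only as a description, since the family was chosen from this contrast. Without 1 library, the members called higher ran from 1 to 2 and those called lower from 1 to 1. Calls over all genes (134 higher, 255 lower) were 826 and 1123 with no filter on low counts, 393 and 602 with DESeq2, and 198 to 363 and 407 to 572 without 1 library. EPB41L1 passed the threshold with no filter (log2 fold change 1.01), with DESeq2 (1.00) and without knockdown replicate 1 (its range without 1 library was 0.76 to 1.31), so 2 members were then called higher. The causes were not tested.

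The lists follow in the order skeleton, 4.1 partners, ERM ligands, ERM kinases, merlin partners and other FERM genes, with 2, 0, 2, 0, 0 and 1 calls. With no filter the calls were 6, 2, 4, 2, 1 and 5. With DESeq2, 4.1 partners had 1, ERM kinases 1, merlin partners 1 and other FERM genes 3. Over genes of at least 5 CPM, the skeleton had 0, ERM ligands 1 and other FERM genes 0. With library size alone other FERM genes had 0, and with upper-quartile scaling merlin partners had 1. Without 1 library the ranges were 2 to 4, 0 to 1, 1 to 3, 0 to 1, 1 to 1 and 1 to 3.

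The replicate numbers are not said to mark a shared batch, although differences between replicates 1 and 2 correlated across genes between knockdown and control (r = 0.639, genes not being independent). With the replicate block, 2517 genes were called higher and 2710 lower, and all 389 calls of the fit without the block were among them. Members called were then 4 higher and 2 lower, which added EPB41 (log2 fold change 0.74), EPB41L1 (1.02), NF2 (0.65) and EPB41L4A (−0.61), where 5227 of 13022 genes were called, and nothing is read from this. The lists then had 10, 6, 9, 5, 5 and 15 calls. EPB41L3 rests on 77 control counts, which limits its ratio.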
